A study of Mus musculus with 6 samples.

Results

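The genes that flank Col15a1 on mouse chromosome 4 were described here as a group: 133 genes of the 24391 in the count table. Members were the genes lying wholly within 37000000 to 57000000 of chromosome 4 (mm9 coordinates, lowest exon start to highest exon end) with 60 or more counts summed over the 6 libraries. The window held 199 genes. Col15a1, Tgfbr1, Abca1 and Tpm2 were set aside by name, 2 genes of ribosomal or complex I families (Mrpl50 and Ndufb6) by family, and 60 genes fell below the count minimum. Just inside the minimum were Gm12409 with 62 counts and Aqp3 with 69, and just outside were Mir5106 and Actl7a with 58 each. The rule used no difference between genotypes.

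RNA was sequenced from atherosclerotic brachiocephalic arteries of 3 Col15a1-/- (KO) and 3 wild type (WT) mice. All 6 animals had a C57BL/6 background, carried no other labelled allele and were fed a Western diet for 18 weeks. In its title the study calls the knockout smooth muscle specific, while the labels give the genotype as Col15a1-/- and name no Cre driver. The arteries are labelled as a mixture of cell types, so fewer cells of a type and less RNA per cell cannot be told apart.

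Levels are given in CPM, the gene's count scaled to a common library size by TMM. Total counts per library ran from 22223584 to 26982005. Libraries KO 3 and WT 2 stood apart from the other 4 on the first principal component, which held 70.8% of the variance. A list of 10 sympathetic nerve markers summed to 5920 CPM in KO 3, 2966 CPM in WT 2, and 209 to 314 CPM in the other 4 libraries. Contractile smooth muscle markers, the cell type named in the title, summed to 6603 to 16200 CPM in KO libraries and 6163 to 10930 CPM in WT libraries.

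A gene knockout is made at a single locus, but the neighbours of that locus can differ between mutant and wild type animals as well. DNA of the strain in which an allele was made can remain linked to it through backcrossing, and engineered elements at a locus can act on nearby promoters. Comparing the neighbours with genes elsewhere is therefore a routine check of a knockout. The strain of origin of the Col15a1 allele, the number of backcrosses and the structure of the allele are not given in the sources used here, and a read count holds no strain variant, so none of these was tested.

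Promoter sequences are shown for the gene at the centre, for Sec61b, a near neighbour on the higher-coordinate side, and for a closely spaced divergent pair described below. They come from RefSeq (GRCm38.p6, a later build than the mm9 of the counts) and run from 250 bases before to 50 bases after the start of transcription, 5′ to 3′ on the strand of the gene. Capitals mark matches on either strand to 3 motifs that did not overlap each other. The motifs searched were CCAAT, the sequence of the CCAAT box, TATAAA, the common form of the TATA box, and GGGCGG, the core of the GC box. A match was counted anywhere in the window, so it need not be a working promoter element. The TATAAA match of Ncbp1 lies 44 bases after the start of transcription, and that of Tstd2 is on the opposite strand.
Col15a1 (chr4:47207762-47208061, plus strand): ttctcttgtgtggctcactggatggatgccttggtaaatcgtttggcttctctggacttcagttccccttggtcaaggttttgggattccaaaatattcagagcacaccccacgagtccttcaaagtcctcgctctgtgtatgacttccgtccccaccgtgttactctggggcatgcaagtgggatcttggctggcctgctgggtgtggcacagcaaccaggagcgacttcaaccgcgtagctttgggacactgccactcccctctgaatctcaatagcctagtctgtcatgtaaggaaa
Sec61b (chr4:47474411-47474710, plus strand): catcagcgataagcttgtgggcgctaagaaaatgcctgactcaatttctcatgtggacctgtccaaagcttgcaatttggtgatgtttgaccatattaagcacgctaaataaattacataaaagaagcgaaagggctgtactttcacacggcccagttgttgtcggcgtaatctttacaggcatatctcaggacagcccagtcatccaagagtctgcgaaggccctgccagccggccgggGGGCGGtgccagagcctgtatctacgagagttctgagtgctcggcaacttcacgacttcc
Ncbp1 (chr4:46138261-46138560, plus strand): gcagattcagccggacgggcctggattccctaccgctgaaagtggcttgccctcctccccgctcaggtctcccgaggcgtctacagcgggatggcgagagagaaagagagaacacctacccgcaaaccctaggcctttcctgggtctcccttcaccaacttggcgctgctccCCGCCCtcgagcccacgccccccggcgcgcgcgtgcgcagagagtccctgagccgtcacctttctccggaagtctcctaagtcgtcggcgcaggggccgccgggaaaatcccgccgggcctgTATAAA
Tstd2 (chr4:46138426-46138725, minus strand): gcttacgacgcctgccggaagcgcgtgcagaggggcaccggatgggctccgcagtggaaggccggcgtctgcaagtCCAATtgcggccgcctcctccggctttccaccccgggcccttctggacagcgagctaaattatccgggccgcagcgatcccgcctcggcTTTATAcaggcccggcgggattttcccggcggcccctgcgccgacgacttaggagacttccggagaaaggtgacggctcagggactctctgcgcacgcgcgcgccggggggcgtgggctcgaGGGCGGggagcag
The table held 153 promoters for 112 members. Of these, 66.7% held a GC box, 36.6% a CCAAT box and 9.8% a TATA box. Over all 32851 RefSeq promoters the shares were 35.7%, 37.4% and 13.6%. Members had to reach the count minimum, whereas the set of all promoters had none. The shares therefore do not separate position from expression in this tissue, and promoters of other genes above the minimum were not tested.

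Col15a1 codes for collagen XV, a component of basement membrane zones. It is the targeted gene and lies at 47220884 to 47326037. It was at 193, 198 and 91.0 CPM in KO libraries and at 574, 407 and 501 CPM in WT libraries. Every KO library was below every WT library. The log2 fold change, KO over WT, was -1.62 (95% interval -2.43 to -0.81), with an unadjusted p of 0.00262 and an adjusted p of 0.587 by edgeR's quasi-likelihood test; DESeq2 gave an adjusted p of 0.00256. Its unadjusted p was the 34th smallest of the 15937 genes tested.

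On the lower-coordinate side the first member is Galnt12, which encodes a transferase that starts mucin-type O-glycosylation and lies 0.15 Mb from Col15a1, midpoint to midpoint. Galnt12 was at 7.93, 6.59 and 2.44 CPM in KO libraries and at 5.91, 7.43 and 10.3 CPM in WT libraries. The groups overlapped, with KO 3 lowest, and the log2 fold change was -0.48 (95% interval -1.60 to 0.64, adjusted p 0.856 by edgeR). Anks6, which encodes a protein of the ciliary inversin compartment, was at 12.1, 13.7 and 8.75 CPM in KO and at 11.96, 8.57 and 12.7 CPM in WT. Its groups overlapped almost fully, and the log2 fold change was 0.053 (95% interval -0.52 to 0.63).

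Farther out on this side lie Gabbr2, a subunit of the GABA-B receptor, Tbc1d2, a GTPase activator of Rab proteins, and Coro2a, an actin-binding coronin. Gabbr2 was at 0.43, 0.79 and 6.43 CPM in KO and at 0.59, 3.23 and 0.85 CPM in WT, so KO 3 and WT 2 were high and the other 4 libraries low. Coro2a had the same layout, with 13.3, 10.9 and 64.9 CPM in KO and 16.7, 47.3 and 21.2 CPM in WT. Tbc1d2 was at 6.68, 5.67 and 3.75 CPM in KO and at 6.41, 5.21 and 10.01 CPM in WT, with a log2 fold change of -0.43 (95% interval -1.24 to 0.39). The groups overlapped for all 3 genes.

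On the higher-coordinate side, past Tgfbr1, lie Alg2 and Sec61b, 0.21 and 0.22 Mb from Col15a1. Alg2 encodes a mannosyltransferase that builds the precursor of N-linked glycans, and Sec61b the beta subunit of the channel through which proteins enter the endoplasmic reticulum. Alg2 was at 25.9, 28.1 and 110 CPM in KO and at 28.9, 70.9 and 30.5 CPM in WT. KO 3 and WT 2 were again the high libraries, and the remaining 4 lay between 25.9 and 30.5 CPM. Sec61b was at 24.0, 31.2 and 24.6 CPM in KO and at 37.2, 28.5 and 28.2 CPM in WT, with overlapping groups and a log2 fold change of -0.23 (95% interval -0.65 to 0.19, adjusted p 0.794 by edgeR).

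The next members on this side were Nr4a3, an orphan nuclear receptor, Stx17, a syntaxin used when autophagosomes fuse with lysosomes, and Erp44, a chaperone of the secretory pathway. Stx17 was at 37.2, 38.1 and 33.9 CPM in KO and at 37.9, 33.7 and 36.1 CPM in WT. Erp44 was at 50.02, 55.0 and 45.2 CPM in KO and at 57.2, 46.3 and 45.2 CPM in WT. Of the 10 members named as nearest on either side, these 2 genes had the narrowest intervals, -0.24 to 0.28 and -0.32 to 0.35 on the log2 scale. The 10 were taken equally from both sides. Trim14, Nans and Anp32b, on the lower-coordinate side, lie nearer to Col15a1 than Nr4a3 but were not among them. Nr4a3 was at 13.2, 9.91 and 6.31 CPM in KO and at 8.37, 11.8 and 12.2 CPM in WT, with overlapping groups and a log2 fold change of -0.14 (95% interval -0.89 to 0.61). The sign of the difference turned for Anks6, Coro2a, Gabbr2, Alg2, Nr4a3, Stx17 and Erp44 when some library was left out, and for Coro2a, Stx17 and Erp44 also with another scaling, so no direction is given for these.

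**Figure D1:**
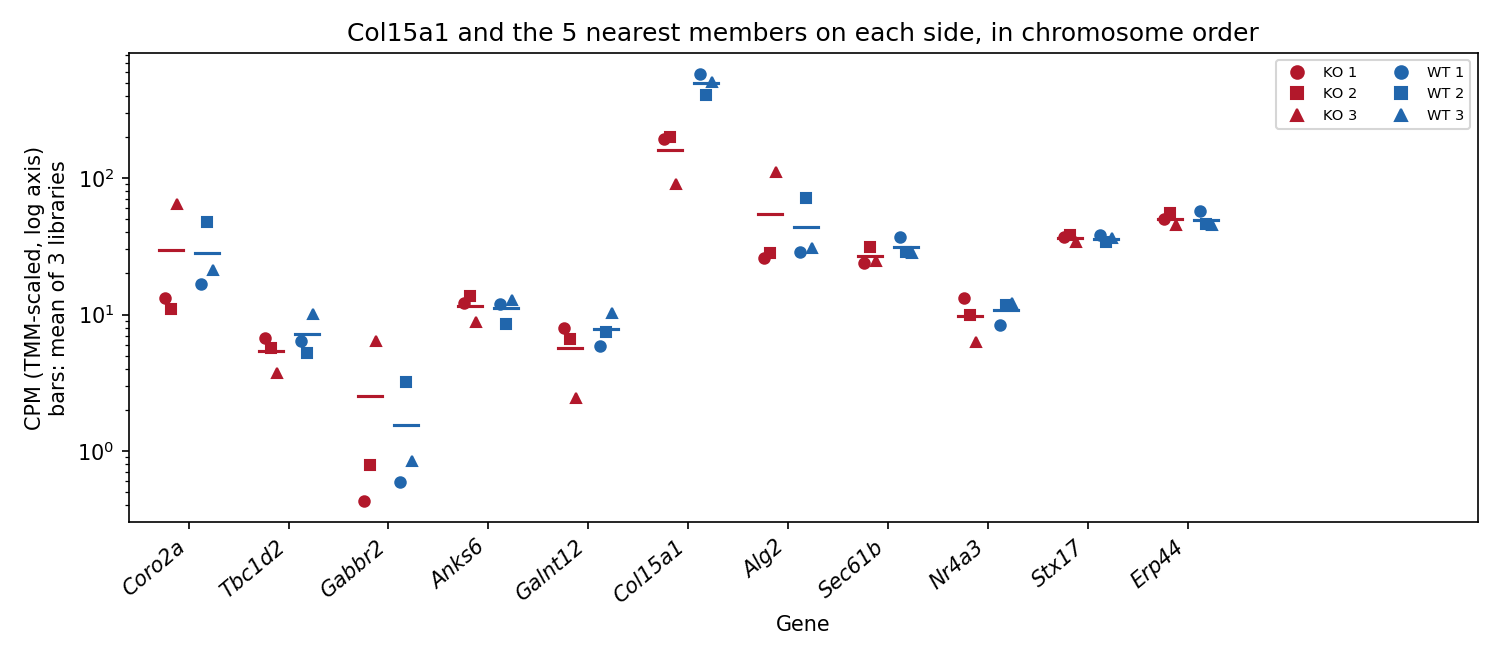
TMM-scaled CPM (log axis) of Col15a1 and the 5 nearest members on each side, in chromosome order, with a point per library and a bar for the mean of 3. The 3 KO libraries lie below the 3 WT libraries for Col15a1, the groups overlap for all 10 neighbours, and KO 3 and WT 2 stand above the other libraries for Coro2a, Gabbr2 and Alg2.

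Of the 133 members, 132 passed the filter on low counts and were tested, and 1 did not. No member passed an adjusted p of 0.05 by edgeR, as was the case for all genes tested (0%). The smallest adjusted p of a member was 0.587, and DESeq2 and limma-voom called 0 members as well. Over all genes DESeq2 called 43 and limma-voom 0. At an unadjusted p under 0.05 edgeR gave 7 members (5.30%), 4 higher and 3 lower in KO, against 8.0% of all genes tested, 4.02% higher and 3.98% lower. DESeq2 and limma-voom also gave 7 members each, against 7.33% of all genes in DESeq2 and 8.81% in limma-voom. The smallest unadjusted p of a member, 0.0123 for Melk, ranked 297th among all genes tested. The members' share was below that of all genes in each of these 3 fits.

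The groups did not overlap for 18 members (13.6%), with 12 above and 6 below in KO, against 16.7% of all genes tested (8.33% above and 8.38% below). On the rest of chromosome 4 the share was 16.9% of 836 genes. With 1 library left out the count was 27 to 34 members (20.5% to 25.6%), against 22.3% to 29.5% of all genes; it was 29 without KO 1, 28 without KO 2, 34 without KO 3, 27 without WT 1, 32 without WT 2 and 29 without WT 3. Without KO 3 and WT 2 together it was 52 members (39.4%), against 40.7% of all genes, since fewer libraries overlap less often.

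Distance from Col15a1 did not order these shares. Within 2 Mb, the groups did not overlap for 4 of 33 members (12.1%), 2 above and 2 below. Between 2 and 5 Mb the count was 8 of 49 (16.3%), and beyond 5 Mb it was 6 of 50 (12%), all 6 above. Within 1 Mb it was 1 of 14, Nans, and 0 of those 14 had an unadjusted p under 0.05 by edgeR. That 0 is for the main fit. Without KO 3 and WT 2, Coro2a had a log2 fold change of -0.66 (unadjusted p 0.00744, adjusted p 0.328 by edgeR). In that fit 10.2% of all genes tested had an unadjusted p under 0.05. The median absolute log2 fold change was 0.23 for the 14 members within 1 Mb, 0.20 within 2 Mb, 0.18 between 2 and 5 Mb and 0.17 beyond 5 Mb, against 0.19 over all genes tested. This median fell with distance. So did the share of members with KO 3 and WT 2 both more than 2-fold above each other library. That share was 21.4% within 1 Mb, 15.2% within 2 Mb, 6.12% between 2 and 5 Mb and 4% beyond, against 5.74% of all genes tested. Whether the 2 trends are linked was not tested. The log2 fold change was above 0 for 89 of the 132 members and below 0 for 43. Over all 15937 genes tested it was above 0 for 9701 and below 0 for 6236. The median was 0.074 for members, against 0.068 over all genes tested. The log2 fold change exceeded 0.5 in size for 22 members (16.7%), against 19.3% of all genes tested.

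**Figure D2:**
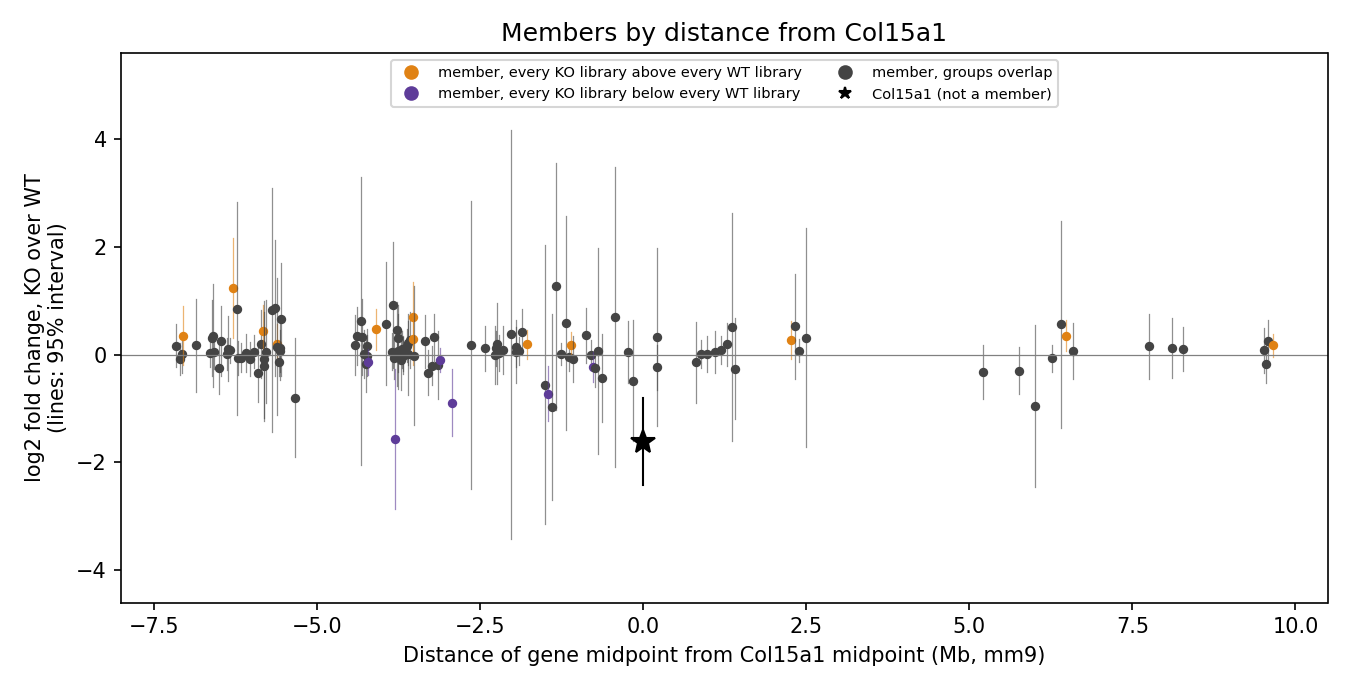
Log2 fold change, KO over WT, of each of the 132 members tested (y axis; lines are 95% intervals) by the distance of its midpoint from that of Col15a1 (x axis, Mb). Col15a1 lies at -1.62, and 9 of its 14 neighbours within 1 Mb lie between -0.25 and 0.25; members whose groups do not overlap are spread along the window.

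**Figure D3:**
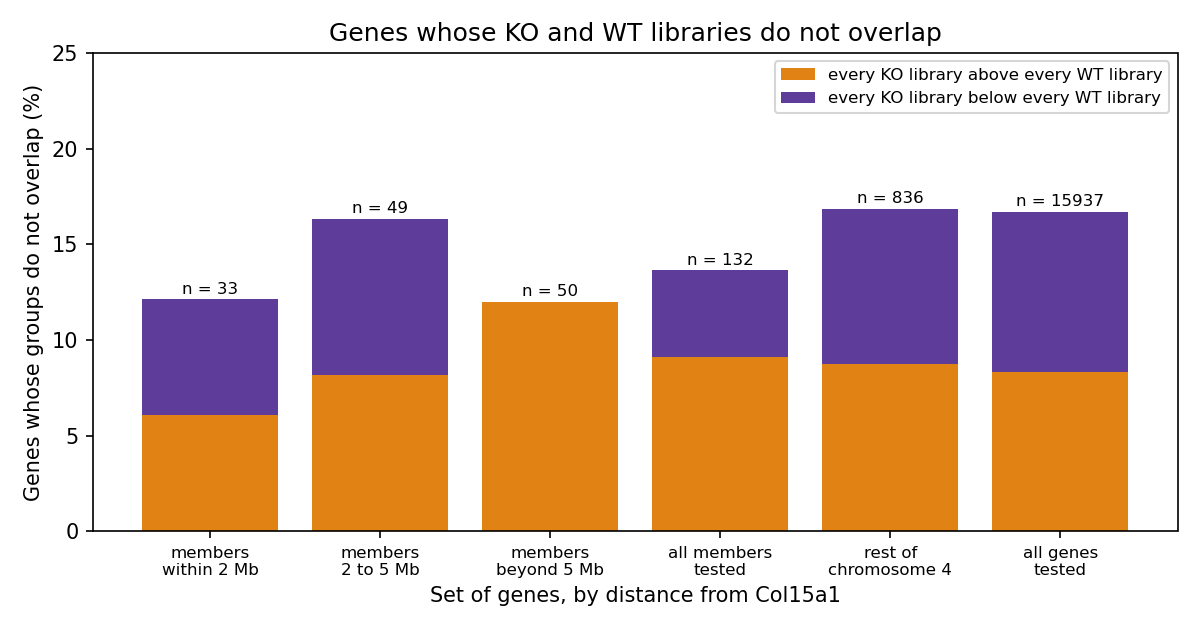
Percentage of genes whose KO and WT libraries do not overlap (y axis), by set of genes (x axis), split into KO above (orange) and KO below (purple), with n tested above each bar. The members stand at 12.1% within 2 Mb, 16.3% between 2 and 5 Mb and 12% beyond 5 Mb, against 16.9% on the rest of chromosome 4 and 16.7% of all genes tested.

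What the data leave room for at each neighbour is given by the intervals. For 93 of the 132 members the 95% interval of the log2 fold change lay between -1 and 1, a 2-fold difference either way, and the median standard error was 0.20.

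The 7 members with an unadjusted p under 0.05 did not pass after adjustment (adjusted p 0.587 to 0.617 by edgeR). Of the 4 on the higher side, Aqp7 encodes an aquaglyceroporin that lets glycerol out of fat cells. Aqp7 was at 25.1, 15.0 and 22.6 CPM in KO and at 12.5, 4.84 and 9.16 CPM in WT, with every KO library above every WT library. The log2 fold change was 1.24 (95% interval 0.32 to 2.17, unadjusted p 0.0166 by edgeR). All 10 adipocyte markers had a positive log2 fold change too. Their sum was 1061 to 1386 CPM in KO and 270 to 856 CPM in WT, with WT 2 lowest, as for Aqp7. The part of fat cells in the value of Aqp7 was not tested. Without KO 3 and WT 2 the log2 fold change of Aqp7 was 0.88.

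Unc13b, a protein that primes vesicles for release, was at 73.4, 59.7 and 66.9 CPM in KO and at 53.2, 39.5 and 51.6 CPM in WT. The groups did not overlap, and the log2 fold change was 0.47 (95% interval 0.10 to 0.85, unadjusted p 0.0216 by edgeR). Another, 5430416O09Rik, is named Spaar in RefSeq, a gene for a small regulatory polypeptide of the amino acid response. It was at 4.01, 3.05 and 4.53 CPM in KO and at 2.96, 1.88 and 2.32 CPM in WT, with a log2 fold change of 0.70 (95% interval 0.045 to 1.35, unadjusted p 0.0397 by edgeR), and 0.42 without KO 3 and WT 2.

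Of the 3 on the lower side, Cd72 encodes a C-type lectin co-receptor of B cells that mouse macrophages also carry. Cd72 was at 38.2, 26.4 and 8.48 CPM in KO and at 59.3, 92.7 and 64.8 CPM in WT. Every KO library was below every WT library, with KO 3 lowest and WT 2 highest. The log2 fold change was -1.57 (95% interval -2.87 to -0.27, unadjusted p 0.0251 by edgeR), the largest in size of any member, and -0.95 without KO 3 and WT 2. All 11 macrophage markers in the table were lower in every KO library than in any WT library. Their sum was 1801, 1705 and 814 CPM in KO and 2459, 2637 and 2863 CPM in WT. The 9 lymphocyte markers summed to 22.7, 30.6 and 6.47 CPM in KO and 21.5, 22.2 and 31.0 CPM in WT, with overlapping groups. The part of macrophages and lymphocytes in the value of Cd72 was not tested. Cd72 shares exon sequence with its neighbour Tesk1 in the annotation, and reads there were counted for neither gene.

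Melk, a kinase of dividing cells, was at 1.47, 2.09 and 1.30 CPM in KO and at 2.96, 2.89 and 3.17 CPM in WT. The groups did not overlap, with a log2 fold change of -0.89 (95% interval -1.51 to -0.27, unadjusted p 0.0123 by edgeR). The 10 cell cycle markers were all lower in KO by fold change, and 8 had groups that did not overlap. Their sum was 118, 122 and 55.0 CPM in KO and 162, 148 and 187 CPM in WT. Smc2, a condensin subunit that packs chromosomes in mitosis, named after its values were seen, was at 24.7, 18.8 and 14.5 CPM in KO and at 23.8, 23.8 and 24.7 CPM in WT, with overlapping groups. The part of cell division in these values was not tested. Aldh1b1, a mitochondrial aldehyde dehydrogenase, was at 5.52, 5.24 and 3.79 CPM in KO and at 7.09, 8.27 and 8.66 CPM in WT, with a log2 fold change of -0.72 (95% interval -1.23 to -0.22, unadjusted p 0.0129 by edgeR). At 1.46 Mb it was the nearest of the 7 to Col15a1.

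**Figure D4:**
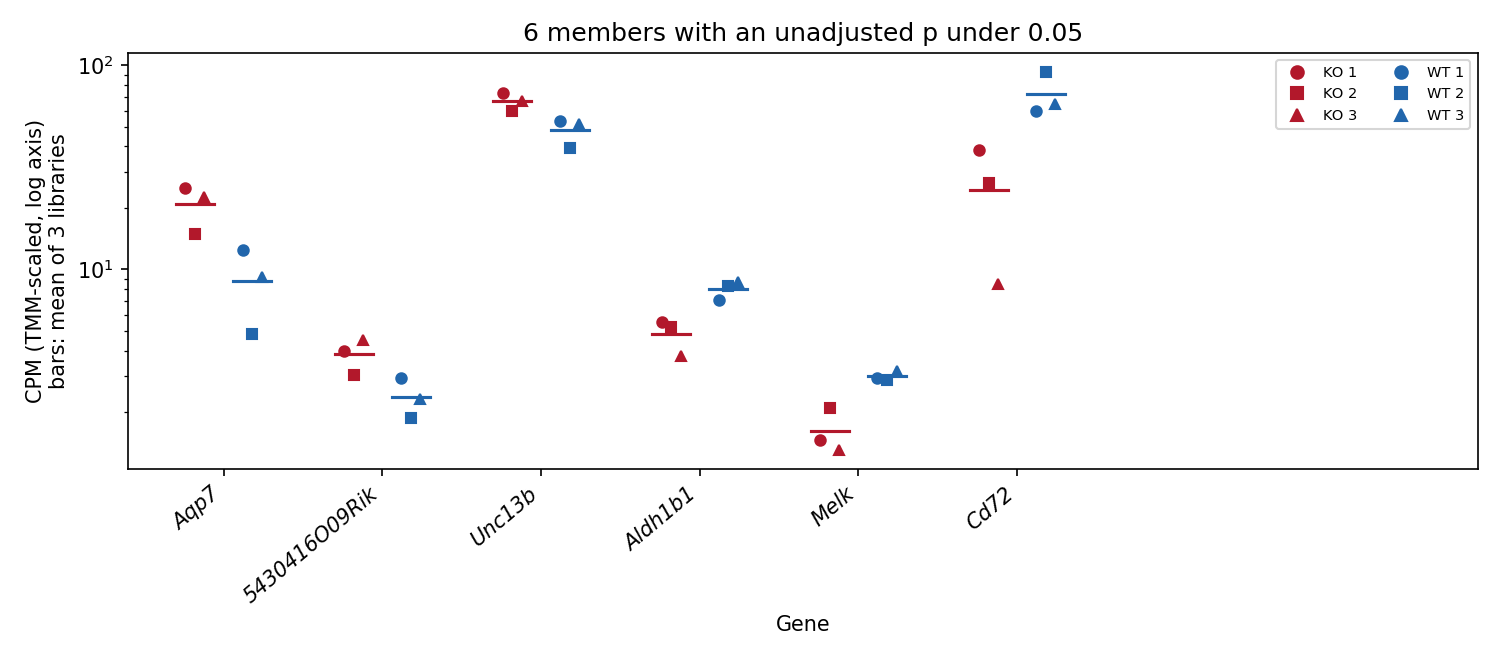
TMM-scaled CPM (log axis) of 6 of the 7 members with an unadjusted p under 0.05, a point per library and a bar for the mean of 3. All KO points lie above all WT points for Aqp7, 5430416O09Rik and Unc13b, and below them for Aldh1b1, Melk and Cd72.

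The other 11 members without overlap differed by less. The 8 above in KO included AI464131 (Myorg in RefSeq), Tmem245, Zfp189, Shb, Ncbp1 and Toporsos (Smim27 in RefSeq), with log2 fold changes from 0.17 to 0.44. Shb, an adaptor of receptor tyrosine kinases such as the VEGF receptor, was at 13.8, 14.3 and 14.9 CPM in KO and at 12.5, 12.4 and 12.5 CPM in WT. Tmem245 was at 84.2, 84.3 and 84.9 CPM in KO and at 79.0, 73.0 and 73.0 CPM in WT. The 3 below in KO included Nans and Fam214b, with log2 fold changes of -0.22 and -0.13. Nans, the synthase of sialic acid, was at 22.2, 22.7 and 20.6 CPM in KO and at 27.6, 23.5 and 25.3 CPM in WT. The smallest unadjusted p of these 11 was 0.0634 (AI464131) by edgeR.

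By role, the members held no list whose genes were called. Over all genes tested, the groups did not overlap for 16.7% (8.33% above and 8.38% below in KO), and the median log2 fold change was 0.068. The lists are small, and their counts were not tested against these shares. Of 18 chaperone, ubiquitin and protein turnover genes, 0 passed, the groups of 1 did not overlap and the median log2 fold change was 0.024. Vcp, the ATPase that extracts proteins for degradation, had 270, 312 and 401 CPM in KO and 314, 364 and 300 CPM in WT, and Bag1, a co-chaperone of Hsp70, averaged 84.5 ± 11.6 CPM in KO and 83.6 ± 3.27 CPM in WT (SD, n = 3 each). Of 16 cytoskeleton, adhesion and traffic genes, 2 did not overlap and the median was 0.062. Tln1, the talin that links integrins to actin, was at 1027, 1201 and 733 CPM in KO and 1087, 913 and 1161 CPM in WT, and the clathrin light chain gene Clta averaged 96.5 ± 17.6 CPM in KO and 111 ± 5.44 CPM in WT.

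Of 15 glycosylation, endoplasmic reticulum and Golgi genes, 3 did not overlap and the median was 0.023; B4galt1, a galactosyltransferase of the Golgi, averaged 126 ± 30.5 CPM in KO and 150 ± 9.40 CPM in WT (SD, n = 3 each). Of 14 transcription, DNA repair and chromosome genes, 2 did not overlap and the median was 0.068. Klf4, a transcription factor studied in the phenotypic switch of smooth muscle cells, was at 64.3, 58.3 and 51.3 CPM in KO and 62.4, 43.0 and 56.2 CPM in WT. The groups overlapped, with a log2 fold change of 0.11 (95% interval -0.31 to 0.52). Creb3, a membrane-bound transcription factor, averaged 46.9 ± 4.26 CPM in KO and 43.8 ± 6.07 CPM in WT.

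Of 12 RNA processing and translation genes, 3 did not overlap, all above in KO, and the median was 0.14. Over all genes tested, 8.33% were above in KO without overlap, and the difference from that share was not tested. Ncbp1, a subunit of the nuclear cap-binding complex, was at 43.2, 49.6 and 45.5 CPM in KO and 41.8, 42.3 and 38.4 CPM in WT. Zcchc7, an RNA-binding zinc knuckle protein, averaged 48.9 ± 7.54 CPM in KO and 44.9 ± 6.78 CPM in WT. Of 10 mitochondrial and metabolic genes, 1 did not overlap and the median was 0.12. Slc25a51, the carrier of NAD into mitochondria, was at 123, 97.9 and 149 CPM in KO and 85.2, 90.0 and 101 CPM in WT, with KO 2 inside the WT range. Tomm5, a subunit of the outer membrane translocase, averaged 16.6 ± 3.40 CPM in KO and 15.7 ± 1.69 CPM in WT. The groups overlapped for all 5 cilium genes, among them Npr2, the receptor of C-type natriuretic peptide, which was listed there and among the receptors and averaged 110 ± 7.98 CPM in KO and 97.8 ± 12.3 CPM in WT, and Invs, which encodes inversin, with 35.9 ± 4.65 CPM in KO and 34.6 ± 5.18 CPM in WT.

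The 12 receptor, chemokine and channel genes had the widest spread. Their median log2 fold change was 0.58, with 10 positive and 2 negative, and the range ran from -1.57 (Cd72) to 1.24 (Aqp7). Of these, 4 (Enho, Gabbr2, Tmeff1 and Grin3a) were high in KO 3 and WT 2 and low elsewhere. Il11ra1, the interleukin 11 receptor, which fibroblasts and smooth muscle cells carry, was at 123, 159 and 96.9 CPM in KO and 132, 87.5 and 128 CPM in WT. The groups overlapped for 10 of the 12. Per kilobase of exon, the highest member of all was Rmrp, the RNA of the RNase MRP complex, with 4314, 5060 and 4052 CPM in KO and 4718, 4637 and 4291 CPM in WT. It alone took 0.392% to 0.497% of counts in KO and 0.412% to 0.511% in WT.

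A set of members was high in KO 3 and WT 2, the libraries that also stood apart in nerve markers; the part of nerve in these values was not tested. Both libraries exceeded each of the other 4 by more than 2-fold for 10 members (7.58%), against 5.74% of all genes tested: Enho, Phf24, Frmpd1, Tmod1, Coro2a, Gabbr2, Alg2, Tmeff1, Grin3a and Fsd1l. These were picked by that pattern, so their values describe it and test nothing. Frmpd1, a scaffold protein with FERM and PDZ domains, was at 1.47, 1.00 and 30.8 CPM in KO and 1.73, 21.6 and 2.24 CPM in WT. Phf24, a zinc finger gene of brain, was at 10.995, 10.7 and 97.2 CPM in KO and 8.78, 53.9 and 14.3 CPM in WT. In both, the 2 high libraries come from different genotypes.

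Tmod1, which caps the slow-growing end of actin filaments, was at 13.3, 9.82 and 52.6 CPM in KO and 9.37, 32.3 and 8.77 CPM in WT. Grin3a, a subunit of the NMDA receptor, was at 5.22, 4.58 and 27.4 CPM in KO and 5.41, 17.8 and 6.68 CPM in WT. Fsd1l was at 22.2, 23.0 and 108 CPM in KO and 21.1, 63.2 and 19.3 CPM in WT. Enho, which encodes the peptide adropin, was at 1.12, 1.396 and 9.90 CPM in KO and 1.32, 3.80 and 1.82 CPM in WT, and Tmeff1, a transmembrane protein gene, was at 5.35, 2.88 and 20.3 CPM in KO and 5.18, 12.3 and 2.55 CPM in WT. In all 10 the level in KO 3 was above that in WT 2, the order also seen in the nerve marker sum. Their log2 fold changes, 0.065 to 0.84, all turned negative without KO 3, to between -0.55 (Tmod1) and -2.79 (Frmpd1).

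**Figure D5:**
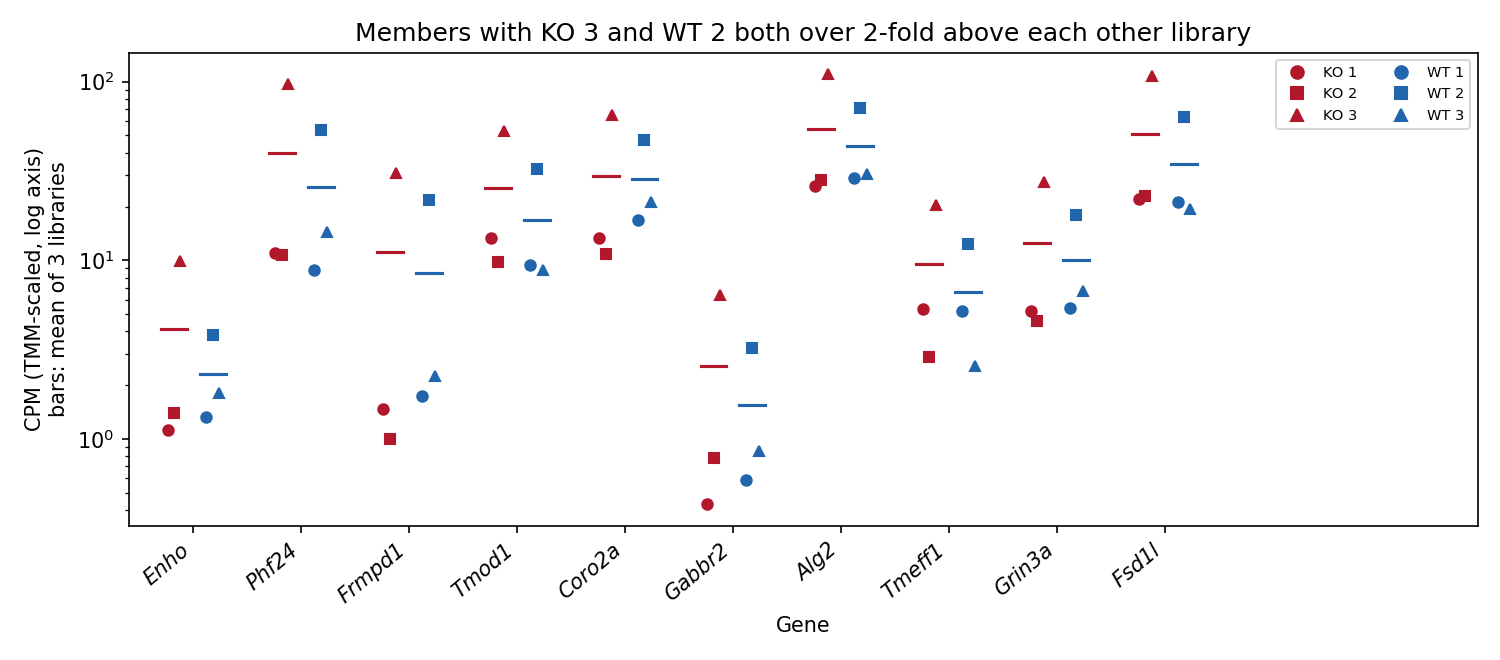
TMM-scaled CPM (log axis) of the 10 members for which KO 3 and WT 2 both exceed each other library by more than 2-fold, a point per library and a bar for the mean of 3. In each gene the KO 3 triangle is highest and the WT 2 square second, and the other 4 libraries lie below.

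A different layout, with KO 3 low, was seen for Stra6l and AI427809, both named after their values were seen. Stra6l, which encodes a receptor of retinol-binding protein, was at 16.0, 11.7 and 1.81 CPM in KO and 18.2, 15.0 and 24.2 CPM in WT. AI427809 is named Mexis in RefSeq, a long noncoding RNA next to Abca1 that is known in mouse macrophages to promote Abca1 transcription. It was at 6.77, 3.40 and 1.10 CPM in KO and 6.05, 6.39 and 9.35 CPM in WT. The groups overlapped for both, and the log2 fold changes were -0.96 and -0.95, or -0.47 and -0.51 without KO 3. KO 3 also had the lowest macrophage sum; its part in these values was not tested.

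Neighbouring members that start close together on opposite strands offer a view within the window. In 12 such divergent pairs, with annotated starts at most 1000 bases apart, both genes were tested members, and the log2 fold changes had the same sign in 5 pairs. Alg2 and Sec61b start 294 bases apart. Alg2 followed KO 3 and WT 2, with the lower of these 2 libraries 2.33 times the highest of the others. For Sec61b, whose promoter is shown above with a GGGCGG match just before the start, that ratio was 0.66. Tstd2 and Ncbp1 start 36 bases apart, and their promoter windows shown above overlap. Ncbp1 was above in every KO library, with a log2 fold change of 0.17, whereas Tstd2, a thiosulfate sulfurtransferase-like gene, was at 21.9, 20.9 and 21.9 CPM in KO and 23.2, 22.7 and 20.4 CPM in WT, with overlapping groups and a log2 fold change of -0.035. The difference within a pair was not tested.

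The 60 genes of the window below the count minimum included 11 olfactory receptor genes and 6 microRNA genes, and 25 of the 60 were listed at 0 in all libraries. Among those at 0 were the chemokine genes Ccl21a and Ccl27b and the receptor gene Il11ra2. These belong to a region of near-identical copies between the members Ccl27a and Fam205a1, and a read with more than a single alignment was left uncounted, so a 0 there does not show that the gene is silent. Ccl27a, at the edge of the same region, was at 2.50, 3.97 and 7.61 CPM in KO and 3.64, 2.69 and 2.63 CPM in WT and is uncertain for the same reason. Il11ra1, whose exons overlap those of Ccl27a, may have the same limit, which was not tested. Exons of 25 members overlapped those of another gene in the window, and reads there were counted for neither.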

How the data were processed

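Whole-number counts per gene were deposited by the authors for 6 libraries; featureCounts 1.4.6-p4 made them, per the file headers, and mm9, STAR and CASAVA are named in the submitters' processing notes. In the deposited counting summaries, 32.6% to 36.9% of alignments were assigned to genes and 29.9% to 33.4% were set aside as mapping to several places; the command in the header sets no strand or pairing option, so reads of antisense or overlapping genes cannot be told apart by strand.

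Counts were filtered (filterByExpr, minimum count 10), scaled by TMM and tested for KO against WT, without a block, with edgeR 4.0.16 (quasi-likelihood, Benjamini-Hochberg adjustment over 15937 genes) in R 4.3.3. Intervals are 95% intervals of the fitted log2 fold change. DESeq2 1.42.0, limma-voom (limma 3.58.1), other scalings and filters, and leaving out libraries were alternatives. Only the edgeR fit was tested on simulated data. Depth limits the precision of low genes, and p-values measure only the spread between these samples.

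Named genes were Col15a1 and the 10 members nearest by side, taken equally from both sides. Up to 10 without overlap in each direction were named by smallest p. The 2 members per role list with most CPM per kilobase of exon were also named, where the rule allowed up to 4 (reduced after values were seen). Rmrp, Stra6l, AI427809, Tstd2, Smc2 and the 10 members high in KO 3 and WT 2 were named after their values were seen. The members and lists were chosen with earlier results of these data known. All 133 members matched RefSeq. Some members are counted but not reported by name here.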

Additional observations from a re-analysis of the deposited data

How the results depend on the processing

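No setting called a member at an adjusted p of 0.05; over all genes DESeq2 called 43, the fit without KO 3 and WT 2 called 1 and the others 0. The count at an unadjusted p under 0.05 was 5 to 10 with 1 library left out (3.76% to 7.52%, against 4.45% to 8.30% of all genes), and 13 without KO 3 and WT 2 (9.85%, against 10.2% of all genes tested). The members' share was slightly above that of all genes without KO 2 (6.82% against 6.72%) and without WT 3 (4.51% against 4.45%). The count without overlap, 18, was 27 to 34 with 1 library left out and 52 without KO 3 and WT 2; fewer samples overlap less often. The median log2 fold change of members, 0.074, was 0.024 with total counts (0.018 over all genes), 0.013 to 0.10 with 1 library left out, and 0.011 without KO 3 and WT 2.

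Deviations of same-numbered libraries from their group means correlated at 0.50, -0.76 and -0.68. KO 3 and WT 2, the libraries that stood apart, carry different numbers. These values therefore cannot show whether the replicate numbers pair the samples. With the replicate block, 5 members had an unadjusted p under 0.05 (3.79%, against 4.65% of all genes) and the median was 0.064, against 0.048 over all genes.

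Of 52 named genes, 27 kept their sign in every setting. Col15a1 passed an adjusted p of 0.05 in DESeq2 (-1.64, adjusted p 0.00256). The log2 fold changes that turned sign were mostly near 0. The exceptions were members high in KO 3 and WT 2, such as Enho (0.84) and Gabbr2 (0.70), which turned negative without KO 3. The cause was not tested. With 1 library left out the log2 fold changes ran from -1.23 to 0.65 for Coro2a, -1.36 to 1.81 for Gabbr2, -0.10 to 0.22 for Anks6, -0.69 to 0.88 for Alg2, -0.49 to 0.095 for Nr4a3, -0.065 to 0.068 for Stx17 and -0.12 to 0.13 for Erp44. They ran from -0.16 to 0.093 for Vcp, -0.10 to 0.065 for Bag1, -0.26 to 0.080 for Tln1, -0.076 to 0.28 for Il11ra1, -0.0066 to 0.21 for Creb3, -0.041 to 0.22 for Klf4 and -0.062 to 0.23 for Zcchc7. The ranges were -0.096 to 0.17 for Tomm5, -0.11 to 0.14 for Invs, -0.14 to 0.043 for Rmrp and -0.16 to 0.00031 for Tstd2. For the members high in KO 3 and WT 2 they were -0.88 to 1.397 for Enho, -1.25 to 1.78 for Phf24, -2.79 to 2.48 for Frmpd1, -0.55 to 1.48 for Tmod1, -0.70 to 1.30 for Tmeff1, -1.03 to 1.04 for Grin3a and -0.61 to 1.33 for Fsd1l.

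Without KO 3 and WT 2 the values that turned were -0.66 for Coro2a, -0.26 for Gabbr2, -0.15 for Alg2, 0.15 for Nr4a3, -0.087 for Vcp, -0.085 for Bag1, -0.018 for Tomm5, 0.048 for Rmrp, -0.33 for Enho, -0.11 for Phf24, -0.69 for Frmpd1 and -0.31 for Grin3a. Size factors (RLE) gave -0.0013 for Stx17, -0.0059 for Erp44, -0.018 for Vcp and -0.0091 for Bag1, and DESeq2 -0.0025, -0.0071, -0.019 and -0.011 for the same genes. Upper-quartile scaling gave -0.0073 for Coro2a, -0.0082 for Stx17, -0.013 for Erp44, -0.031 for Vcp and -0.022 for Bag1, and total counts -0.035, -0.024, -0.030, -0.051 and -0.037 for the same genes. Limma-voom gave -0.28 for Coro2a, -0.0070 for Vcp, -0.34 for Frmpd1 and -0.010 for Grin3a. The replicate block gave -0.28 for Coro2a, -0.0080 for Vcp and -0.24 for Frmpd1, and no filter -0.0010 for Vcp.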

Other observations

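Low counts in the table were mostly even. Of 22468 values from 1 to 20 over all genes and libraries, 69.4% were even, with 1614 values at 1 and 5272 at 2. The cause was not tested.

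The members held 0.904% to 1.08% of all counts per library. Of the 132 tested, 33 had KO 3 and WT 2 as their 2 highest libraries, against 22.2% of all genes tested.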
